A study of Homo sapiens with 8 samples.

Results

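10 genes that carry, sense or use butyrate were read for 2 histone acetylation marks in KGN cells, a human ovarian granulosa tumour line. They are the transporters SLC16A1, SLC16A3, SLC16A7 and SLC5A8, the transporter partner BSG, the receptors HCAR2, FFAR2 and FFAR3, and the enzymes ACSS2 and ACADS. The genes were chosen for their role and by no threshold on the measured values. They are 10 of 19974 protein-coding genes of the RefSeq table on chromosomes 1 to 22 and X. For each, every peak inside the gene or within 10 kb of either end was taken, and this stretch is called the window. The untreated control cells and the cells given 1 mM butyrate for 6 h were the same line, and no transgene or mutation is named in the labels. Each condition has 1 library for H3K9ac (histone H3 acetylated at lysine 9), 1 for H4K16ac (histone H4 acetylated at lysine 16), 1 for a nonspecific immunoglobulin (IgG) and 1 of input chromatin. With 1 library per antibody and condition there are no replicates, so differences between control and butyrate are described and not tested.

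Butyrate, a short-chain fatty acid, blocks histone deacetylases once it has entered the cell. The monocarboxylate transporters move lactate, pyruvate, ketone bodies and butyrate together with a proton. SLC16A1 (MCT1) is the widespread form, SLC16A3 (MCT4) is the lactate exporter of glycolytic cells, and SLC16A7 (MCT2) has a high affinity for pyruvate. BSG (basigin, CD147) is the membrane partner that brings SLC16A1 and SLC16A3 to the cell surface. SLC5A8 (SMCT1) takes up monocarboxylates together with sodium. HCAR2, FFAR2 and FFAR3 are G protein-coupled receptors at the cell surface that sense short-chain acids, HCAR2 being also the niacin receptor. Inside the cell, ACSS2 makes acetyl-CoA from acetate in cytosol and nucleus, and ACADS catalyses the first dehydrogenation of butyryl-CoA in mitochondria. H3K9ac marks mainly the promoters of active genes, and H4K16ac goes with open, transcribed chromatin.

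The 4 histone peak lists had an implied depth of 17.4 to 29.4 M reads, and none of the IgG peaks lay in a window of the 10 genes. Of 9 granulosa markers, 3 (FOXL2, INHA and CYP11A1) had an H3K9ac promoter peak in control and 4 with butyrate, and CYP19A1, FSHR, NR5A1, STAR and AMH had none in either list. Of 14 markers of epithelial, blood, endothelial and theca or stroma cells, 2 had one in control (KRT8 and KRT18) and 5 with butyrate. The 3 further ones were the theca and stroma markers COL1A1, LUM and INSL3. Of all genes, 55.6% had one in control and 64.6% with butyrate, so the granulosa markers did not stand above all genes. The lowest listed −log10 p was 3.46 in control H3K9ac and 2.97 with butyrate, so the butyrate list admits weaker peaks. The peak names in both H4K16ac lists carry the letters k12, and H4K16ac here means the libraries so labelled.

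The sequence upstream of a gene start is shown for 5 genes, because the promoters differed in whether H3K9ac was listed there. ACADS had H3K9ac in both conditions. The outermost start of ACSS2 and that of SLC16A7 had it with butyrate alone. SLC5A8 and FFAR2 had it in neither. Each line runs 5′ to 3′ in the direction of transcription and ends just before the start, from the RefSeq promoter table (GRCh38.p14), with every CG dinucleotide in capitals. CG reads the same on both strands. The ACADS line stops at the gene start in the authors' columns.
ACADS, chr12:120725576-120725734, + strand: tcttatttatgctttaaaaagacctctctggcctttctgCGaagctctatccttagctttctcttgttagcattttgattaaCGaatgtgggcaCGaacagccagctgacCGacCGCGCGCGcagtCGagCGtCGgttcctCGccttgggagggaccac
ACSS2, chr20:34874739-34874988, + strand: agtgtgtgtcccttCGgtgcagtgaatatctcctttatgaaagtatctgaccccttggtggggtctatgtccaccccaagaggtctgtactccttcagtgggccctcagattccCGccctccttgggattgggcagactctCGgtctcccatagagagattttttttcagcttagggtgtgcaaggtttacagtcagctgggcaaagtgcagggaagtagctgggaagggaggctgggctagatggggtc
SLC16A7, chr12:59595779-59596028, + strand: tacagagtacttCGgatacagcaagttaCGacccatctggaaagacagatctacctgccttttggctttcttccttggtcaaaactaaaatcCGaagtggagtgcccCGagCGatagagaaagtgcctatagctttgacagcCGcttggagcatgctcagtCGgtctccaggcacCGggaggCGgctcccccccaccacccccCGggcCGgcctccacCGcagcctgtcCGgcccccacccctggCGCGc
SLC5A8, chr12:101210239-101210488, - strand: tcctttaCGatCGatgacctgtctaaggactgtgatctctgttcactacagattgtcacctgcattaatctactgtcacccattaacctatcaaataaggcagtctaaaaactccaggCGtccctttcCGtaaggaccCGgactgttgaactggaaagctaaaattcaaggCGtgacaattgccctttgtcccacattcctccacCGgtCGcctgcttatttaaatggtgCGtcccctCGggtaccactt
FFAR2, chr19:35448007-35448256, + strand: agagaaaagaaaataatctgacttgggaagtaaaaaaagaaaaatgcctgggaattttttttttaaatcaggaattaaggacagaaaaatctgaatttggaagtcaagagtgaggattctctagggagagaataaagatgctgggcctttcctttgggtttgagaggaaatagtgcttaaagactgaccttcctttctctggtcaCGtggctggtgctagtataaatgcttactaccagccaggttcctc
These lines hold 12 CG in 159 bases for ACADS, 3 in 250 for ACSS2, 15 for SLC16A7, 10 for SLC5A8 and 1 for FFAR2. The ACADS line is cut short, and the full 250 bases upstream of the start at 120725826 hold 23 CG. Upstream of the 34961 starts in the table, the median was 11 CG in 250 bases (quartiles 3 and 23), and 94.0% held at least 1.

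H3K9ac was listed at the monocarboxylate transporters, at BSG and at the 2 enzymes, and at none of the 3 receptors nor at SLC5A8. In control, 5 of the 10 genes had an H3K9ac promoter peak, that is, a peak within 1 kb of a start (SLC16A1, SLC16A3, BSG, ACSS2 and ACADS), where 55.6% of all genes had one. With butyrate it was 6 of 10, against 64.6% of all genes. SLC16A7 was the 1 gene with a promoter peak in butyrate alone, a call made at 9.14% of all genes. No member had one in control alone, which 0.173% of all genes did. A promoter peak in both lists was present at 5 members and at 55.4% of all genes, and in neither list at 4 members and at 35.2%. None of the 5 members with a control promoter peak was without one with butyrate, where 0.311% of such genes were, and 1 of the 5 members without one had it with butyrate, where 20.6% of such genes did. The shares of the members were thus near those of all genes.

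The whole H3K9ac lists hold 22215 peaks in control and 79356 with butyrate. Over the 10 windows they held 18 and 49 peaks, which covered 17082 and 52402 bp of the 602342 bp of window. Any H3K9ac peak in the window was listed at 5 members in control and 6 with butyrate, against 63.8% and 76.5% of all genes. A window with a peak in butyrate alone was found at 1 member and 12.9% of genes, in control alone at 0 members and 0.190% of genes, and in neither at 4 members and 23.3% of genes. Of the 10 members, 6 had more peaks with butyrate and none had fewer, where 62.3% of all genes had more and 4.17% fewer. These shares of all genes include genes with no peak in either list. With each list limited to its 22215 strongest peaks, 18 control and 19 butyrate peaks remained in the windows, and only ACSS2 had more with butyrate (1 and 4). BSG then had fewer (6 and 4), SLC16A1 (3), SLC16A3 (6) and ACADS (2) had equal numbers, and SLC16A7 had none. In these lists of equal length, 17.0% of all genes had more and 26.7% fewer. The median difference in the whole lists was 1 peak for the members and 1 peak for all genes. Of the control peaks, 16 of 18 overlapped a butyrate peak by at least 1 bp, and 38 of the 49 butyrate peaks had no control peak beneath them. Over all peaks of the lists, 92.4% of control peaks overlapped a butyrate peak and 77.0% of butyrate peaks had no control peak beneath them. Of the 38 in the windows, 32 reached the lowest −log10 p of the control list. The 38 had a median fold of 3.20 and a median width of 442 bp, against 5.49 and 1521 bp for the 11 butyrate peaks that overlapped a control peak. The share reaching the control limit, here and for single genes below, was not computed over all peaks of the lists. Nor were these medians of fold and width. Fold here is the authors' fold enrichment, the reads at a summit plus 1, divided by the local background plus 1. The peak lists do not name the library in which that background was counted, so it is not taken as reads of the same library.

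**Figure D1:**
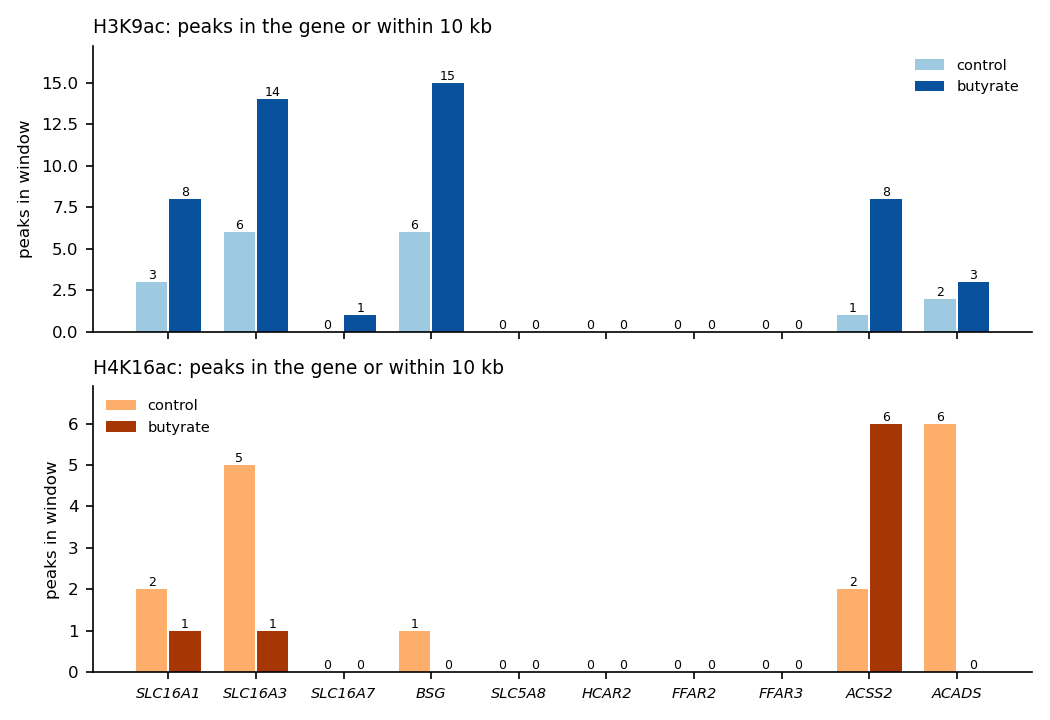
Bars give the number of listed peaks (y axis) in the window of each of the 10 genes (x axis), H3K9ac above and H4K16ac below, with the light bar for the control library and the dark bar for the butyrate library. H3K9ac counts are higher with butyrate at 6 genes (at ACSS2 alone in lists of equal length), and H4K16ac counts are lower at 4 (2 in lists of equal length) and higher at ACSS2, with 1 library behind each bar.

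SLC16A1 lies on the minus strand of chromosome 1 (112911847 to 112956196, GRCh38), and SLC16A1-AS1, a long noncoding RNA gene, starts beside it in the other direction. In control it had 3 H3K9ac peaks, and with butyrate 8. The promoter peak at its start was at chr1:112953975-112956206 in control, 2232 bp wide with a fold of 9.49, and at chr1:112954392-112956167 with butyrate, 1776 bp wide with a fold of 5.39. The reads stacked at the summit were 47 in control and 41 with butyrate. Divided by the library's depth in M reads (RPM) this is 1.93 (95% Poisson interval 1.42 to 2.57, counting error only) and 1.40 (1.00 to 1.90), and the intervals overlapped. The local background was 4.06 reads in control and 6.79 with butyrate. A second promoter peak, on the side of SLC16A1-AS1, had a fold of 6.21 in control and 4.69 with butyrate. Of the 5 peaks listed with butyrate alone, 3 lay inside the gene and 2 upstream. The strongest of them, at chr1:112936212-112936588 in intron 1 by the authors' annotation, had a fold of 5.11 from 19 reads and lay 19475 bp from the nearer start. Of these 5 peaks, 4 reached the limit of the control list.

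SLC16A3 lies on the plus strand of chromosome 17 (82217934 to 82240086) and has 7 starts in the tables used. It had 6 H3K9ac peaks in control and 14 with butyrate. The main promoter peak, over the starts at 82228435 and 82229042, was at chr17:82228237-82230974 in control (2738 bp, −log10 p 21.0, 28 reads) and at chr17:82227879-82232870 with butyrate (4992 bp, −log10 p 19.7, 32 reads). In RPM the summits were 1.15 (0.764 to 1.66) and 1.09 (0.746 to 1.54), with overlapping intervals, and the butyrate peak was 1.82 times as wide. Around the outermost start, 4 separate control peaks were spanned by 1 butyrate peak of 8332 bp, chr17:82211424-82219755. This broad peak also covers the start of CCDC57, the upstream neighbour, where control had its own peak of 2041 bp. Within 1 kb of the 3 innermost starts (82233687, 82234899 and 82235774) control had no peak. With butyrate a peak of 2016 bp and fold 4.40 lay at chr17:82233769-82235784. Further butyrate peaks ran through the 3′ end of SLC16A3 into the overlapping gene CSNK1D, a casein kinase, so these cannot be assigned to one of the 2 genes.

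BSG lies on the plus strand of chromosome 19 (571283 to 583493). It had 6 H3K9ac peaks in control and 15 with butyrate, the highest number among the 10 genes. The strongest control peak, chr19:572627-573932 at the second start, was 1306 bp wide with a fold of 8.06 from 32 reads. With butyrate the peak there was chr19:572574-576658, 4085 bp wide with a fold of 9.66 from 35 reads. This was the highest fold of any peak in the 10 windows. In RPM the summits were 1.31 (0.899 to 1.86) and 1.19 (0.831 to 1.66), and the intervals overlapped. At the outermost start the fold was 5.95 in control and 5.49 with butyrate. Of the 15 butyrate peaks, 11 had no control counterpart, and 8 of those reached the limit of the control list. A run of them continued downstream to HCN2, a pacemaker ion channel gene. Near its start the butyrate list had a peak of 1379 bp with a fold of 6.17 where control had one of 274 bp with a fold of 3.23, and a second control peak of 558 bp at the HCN2 start overlapped one of 1071 bp.

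SLC16A7 lies on the plus strand of chromosome 12 (59596029 to 59789841). Its window of 213813 bp held a single peak in the 4 lists. This was the butyrate H3K9ac peak at chr12:59595415-59597548 over the outermost start, 2134 bp wide with 3 summits. Its fold was 3.24, its −log10 q 4.41 and its summit 21 reads, or 0.715 RPM (0.443 to 1.09). In the control list a pileup of 8 reads, or 0.329 RPM, was the lowest that could be listed at the genome-wide background. The limit at a higher local background would be higher, and the background of control at this start is not known from the list. The second start, at 59689370, had no peak. Of 1606 genes with a window of at least 200 kb, 42.0% had no control H3K9ac peak.

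**Figure D2:**
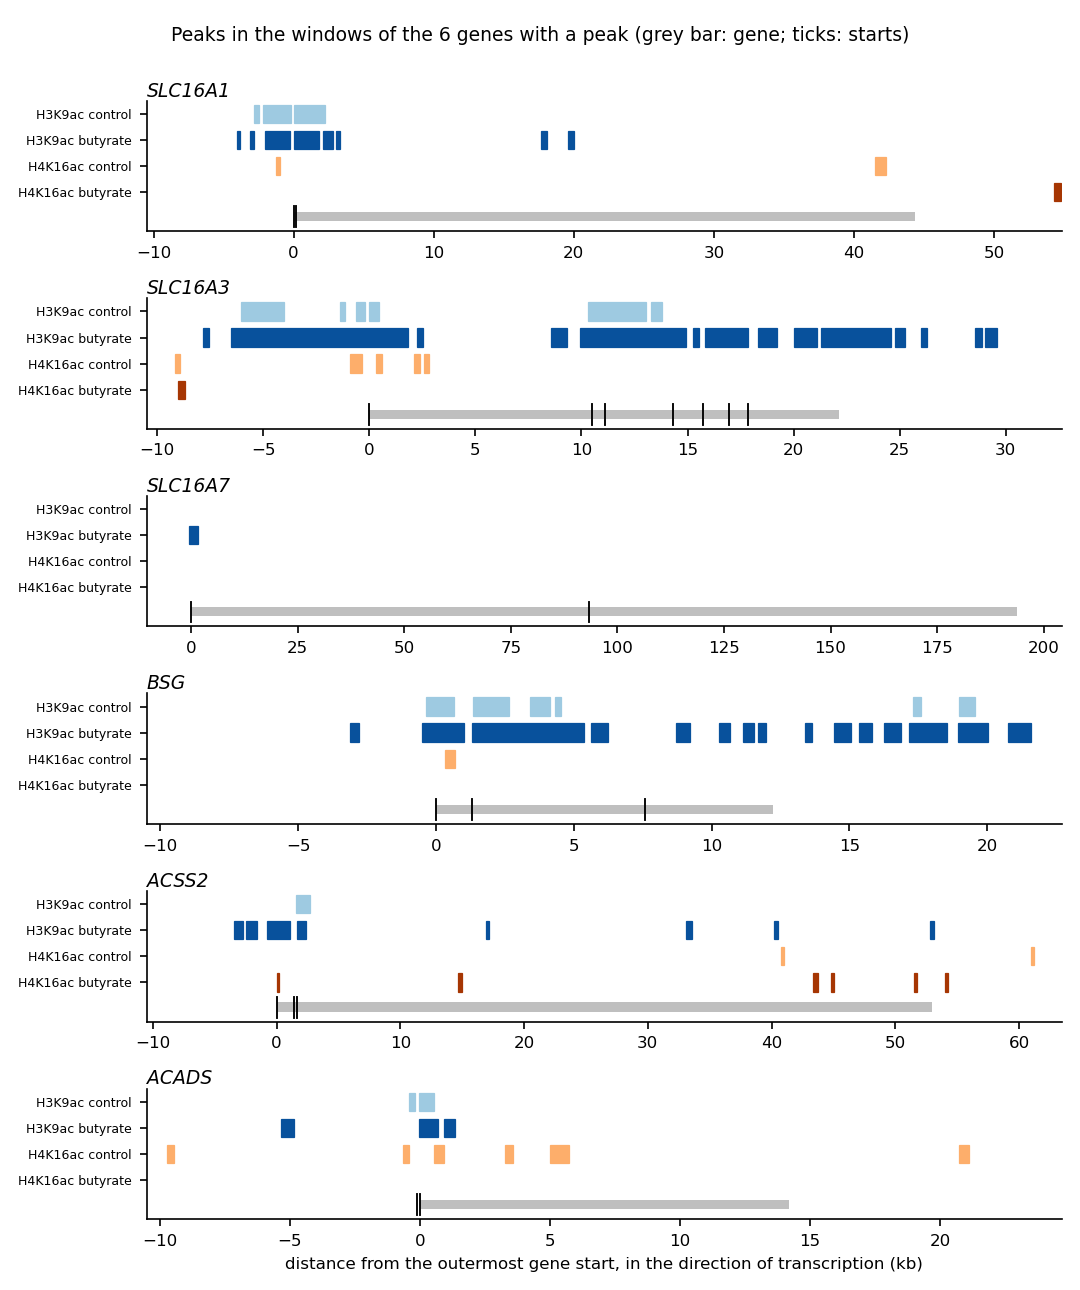
Maps of the 6 genes with a peak, each with distance from the outermost start in kb along the direction of transcription (x axis) and 1 lane per library (y axis), where boxes are peaks, the grey bar is the gene and black ticks are starts. The dark blue butyrate H3K9ac boxes extend beyond the light control boxes at SLC16A3 and BSG, and SLC16A7 has a single box at its start.

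SLC5A8, HCAR2, FFAR2 and FFAR3 had no peak of either mark in any of the 4 lists, in the gene or within 10 kb, where 20.0% of all genes had none. SLC5A8 is on chromosome 12 (101155493 to 101210238), HCAR2 on chromosome 12 (122701293 to 122703357), and FFAR2 (35448257 to 35451767) and FFAR3 (35358151 to 35360489) on chromosome 19. The 3 receptor genes are short, with windows of 22065 to 23511 bp. Of 3160 genes with a window under 25 kb, 38.1% had no peak in the 4 lists. Of 2692 genes with a window of 60 to 90 kb, as SLC5A8 has, 12.0% had none. HCAR2 has a near-identical copy in HCAR3 and FFAR3 one in GPR42. How reads that match both copies were treated is not given in the sources used here, so an empty window at these 2 genes may be a limit of mapping, which was not tested.

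ACSS2 lies on the plus strand of chromosome 20 (34874989 to 34927959). It had 1 H3K9ac peak in control and 8 with butyrate. The peak at the inner starts (34876435 and 34876612) was at chr20:34876572-34877712 in control, with a fold of 6.40 from 21 reads, and at chr20:34876636-34877363 with butyrate, with a fold of 7.54 from 34 reads. In RPM the summits were 0.863 (0.534 to 1.32) and 1.16 (0.802 to 1.62). ACSS2 was the 1 member among the 5 with a promoter peak in both lists whose summit in RPM was higher with butyrate. The intervals overlapped. The outermost start, 34874989, had no control peak and a butyrate peak of 1817 bp with a fold of 5.08 at chr20:34874234-34876050. Farther upstream, 2 butyrate peaks with a fold of 4.57 and 6.55 lay at the start of the neighbour GGT7, a gamma-glutamyltransferase family gene, where control had none. The other 4 butyrate peaks lay inside the gene and were weak, with folds of 2.56 to 2.78 from 10 to 14 reads.

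ACADS lies on the plus strand of chromosome 12 (120725826 to 120740008). It had 2 H3K9ac peaks in control and 3 with butyrate. Its start carried a narrow control peak at chr12:120725788-120726368, 581 bp wide with a fold of 9.40 from 32 reads. The butyrate peak at chr12:120725810-120726526 was 717 bp wide with a fold of 4.44 from 25 reads. In RPM the summits were 1.31 (0.899 to 1.86) and 0.852 (0.551 to 1.26), again with overlapping intervals, and the local background was 2.51 and 4.85 reads. The remaining butyrate peak lay upstream, in the neighbour UNC119B. A small control peak of 233 bp just upstream of the start had no butyrate counterpart. A butyrate peak of 404 bp and fold 4.52 began 934 bp downstream of the start, where control had none. Unlike at SLC16A3 and BSG, no butyrate peak was listed further inside the gene.

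Set beside all 10895 genes with an H3K9ac promoter peak in both lists, the 5 members spanned much of the range. The median summit of all these genes was 1.15 RPM in control and 1.02 with butyrate, and the median ratio of butyrate to control was 0.896 (quartiles 0.758 and 1.08). The ratio was 0.648 at ACADS, 0.723 at SLC16A1, 0.907 at BSG, 0.948 at SLC16A3 and 1.34 at ACSS2. ACADS and SLC16A1 lay below the lower quartile and ACSS2 above the upper one. By width the strongest promoter peaks were 0.638 times as wide with butyrate at ACSS2 and 0.796 times at SLC16A1, and 1.23, 1.82 and 3.13 times at ACADS, SLC16A3 and BSG. Each ratio compares 1 peak per list. The SLC16A1 control peak also overlapped a separate butyrate peak of 709 bp, and ACSS2 had a further butyrate promoter peak of 1817 bp. The median over all these genes was 1.35.

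**Figure D3:**
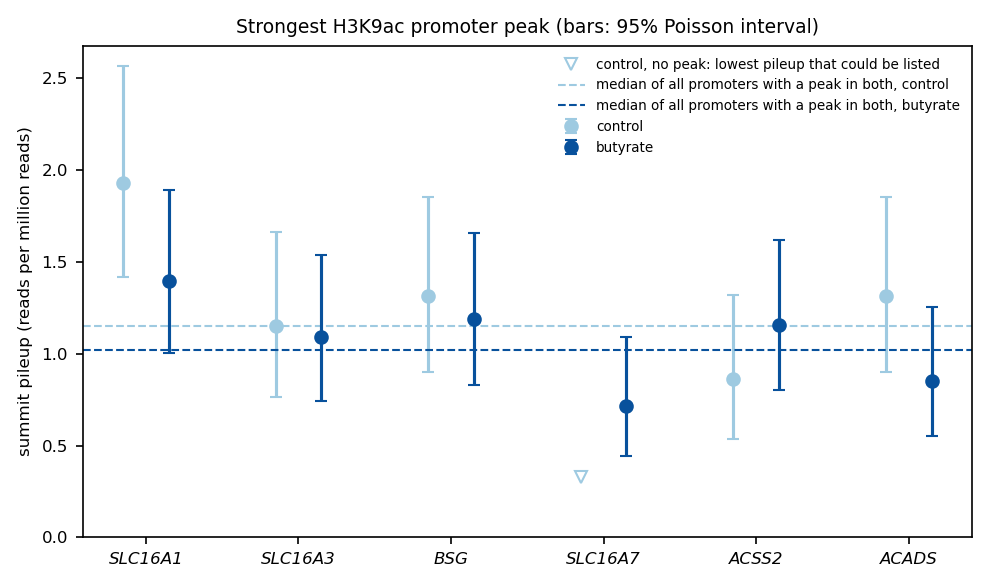
Reads stacked at the summit of the strongest H3K9ac promoter peak, in RPM (y axis, from 0), for 6 genes (x axis) in control (light) and butyrate (dark). Bars give the 95% Poisson interval of the count, and dashed lines the medians of 10895 genes. The triangle at SLC16A7, which has no control peak, is the lowest pileup that control could list at the genome-wide background. The intervals of control and butyrate overlap at each of the 5 genes with both values.

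By share of window under H3K9ac peaks, SLC16A3 and BSG stood high in both conditions. At SLC16A3 it was 15.3% in control and 56.4% with butyrate, higher than in 95.4% and 99.2% of all genes. At BSG it was 12.9% and 41.5%, higher than in 93.3% and 97.0% of genes. SLC16A1 had 7.04% and 9.16%, ACSS2 1.56% and 7.66%, ACADS 2.38% and 4.76%, and SLC16A7 0 and 0.998%. The median over all genes was 1.40% in control and 3.79% with butyrate. Both windows lie among close neighbours, and part of their covered sequence belongs to CCDC57, CSNK1D and HCN2.

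**Figure D4:**
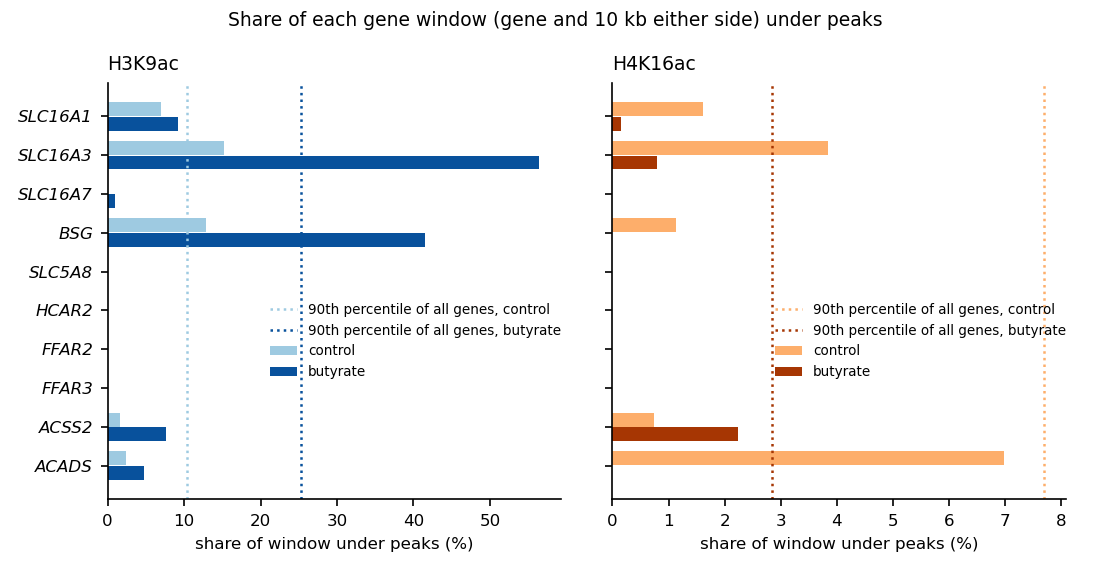
Bars give the share of each gene's window under peaks in percent (x axis, a separate scale for each mark) for the 10 genes (y axis), light for control and dark for butyrate, with dotted lines at the 90th percentile of all genes in each library. SLC16A3 and BSG pass the H3K9ac lines in both conditions, and no member passes the H4K16ac line of its own library.

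The whole H4K16ac lists hold 73586 peaks in control and 33752 with butyrate. In the 10 windows they held 16 and 8 peaks, and the order turned when each list was limited to its 33752 strongest peaks, to 5 in control and 8 with butyrate. A promoter peak was listed in control at 4 of the 10 genes (SLC16A1, SLC16A3, BSG and ACADS), against 19.8% of all genes, and with butyrate at 1 (ACSS2), against 5.07%. The 4 genes had theirs in control alone, as did 17.4% of all genes, and ACSS2 had its own with butyrate alone, as did 2.67%. In lists of equal length 1 member had a promoter peak in control (SLC16A3) and 1 with butyrate (ACSS2). For promoter peaks in lists of equal length the share of all genes was not computed, and the shares given here are from the whole lists. No member had one in both lists, where 2.40% of all genes did, and 5 had one in neither, where 77.5% did. Of the 6 members without one in control, 1 had it with butyrate, where 3.33% of such genes did. Any H4K16ac peak in the window was listed at 5 members in control and 3 with butyrate, against 61.0% and 50.4% of all genes. A peak in control alone was found at 2 members and 17.3% of genes, with butyrate alone at 0 members and 6.66% of genes, and in neither at 5 members and 32.3% of genes. By number of peaks, 4 members had fewer with butyrate and 1 had more, against 48.8% and 13.2% of all genes. In lists of equal length 2 had fewer (SLC16A3, 2 and 1, and ACADS, 1 and 0) and 1 had more (ACSS2, 1 and 6), against 30.0% and 25.5% of all genes. SLC16A1 then had 1 peak in each list and BSG had none. Of genes with a control promoter peak, 87.9% had none with butyrate, so absence at all 4 members is near the background. The median difference in the whole lists was 0 for the members and 0 for all genes.

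These H4K16ac peaks were weak. The H4K16ac lists reach down to a −log10 p of 2.30, with q values up to 0.304 in control and 0.621 with butyrate. The H3K9ac lists stop at a q of 0.05. Of the 16 control H4K16ac peaks 3 had a q of 0.05 or less, and of the 8 butyrate peaks 1 did. This share was not computed over the whole H4K16ac lists, so weakness is not shown to be particular to these genes. None of the 3 control peaks was a promoter peak. The control promoter peak of SLC16A1 (11 reads, fold 2.71) lay within 1 kb of the start, on the side of SLC16A1-AS1. That of BSG at chr19:571608-571971 had 8 reads and a fold of 2.64. SLC16A3 had 2, with 11 and 6 reads, and ACADS 2, with 7 and 8 reads. The lowest pileup that could be listed at the genome-wide background was 6 reads in control and 7 with butyrate. In control 5 of the 16 peaks overlapped an H3K9ac peak, at ACADS, BSG, SLC16A1 and SLC16A3. With butyrate 1 of the 8 did, at ACSS2. The share over all H4K16ac peaks was not computed, so these counts have no background.

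ACADS had the most H4K16ac peaks in control, 6 against 0 with butyrate. The strongest, chr12:120730814-120731576 in intron 2, was 763 bp wide with a fold of 4.14 from 10 reads and a −log10 q of 2.19. SLC16A3 had 5 peaks in control and 1 with butyrate, and this far upstream pair, inside CCDC57, was the only one of the 16 control peaks that overlapped a butyrate peak (98 bp). Over the whole control list, 6.15% of H4K16ac peaks overlapped a butyrate peak. ACSS2 differed in the other direction, with 2 peaks in control and 6 with butyrate. The strongest butyrate peak, chr20:34919763-34920031 in intron 8, had a fold of 4.44 from 14 reads and a −log10 q of 1.53. The other 5 had a −log10 q of 0.207 to 0.384. The one at the outermost start, chr20:34874989-34875224, was 236 bp wide with 9 reads, and it overlapped the butyrate H3K9ac peak there. No control H4K16ac peak of ACSS2 overlapped a butyrate one.

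Other genes of the pathway were read in the same way, from a list of 51 genes, of which 50 have a promoter call. An H3K9ac promoter peak was present at 23 of them in the control list and 25 in the butyrate list. Of all genes, 55.6% and 64.6% had one. The 2 further genes were SLC16A11, a monocarboxylate transporter family member, and FFAR4, a receptor for long-chain fatty acids, and no gene had one in control alone. Over all genes, 9.14% had one in butyrate alone and 0.173% in control alone. By group, it was 5 and 6 of 14 transport genes, 0 and 1 of 7 receptors, 0 and 0 of 9 genes of acyl-CoA synthesis, and 18 and 18 of 20 genes of mitochondrial oxidation, ketone body and acetyl-CoA metabolism. That acyl-CoA group includes the ACSM genes, whose products activate medium-chain acids and butyrate. EMB, the alternative partner of monocarboxylate transporters, had no peak of either mark. For H4K16ac, 7 of the 50 genes had a promoter peak in the control list, against 19.8% of all genes. In the butyrate list ACADVL alone had one, against 5.07% of all genes. The 6 genes with one in control alone were SLC16A5, SLC16A6, GPR84, ACADM, OXCT1 and CPT2, a call made at 17.4% of all genes. By number of H3K9ac peaks in the window, 26 of the 51 genes had more with butyrate and 2 had fewer. Of all genes, 62.3% had more and 4.17% fewer, and the median difference was 1 for the pathway and for all genes. By number of H4K16ac peaks, 5 had more and 21 fewer, against 13.2% and 48.8% of all genes. These window counts are from the whole lists.

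CG counts were also read at every matched start. The promoter table matched 7 members with 14 starts, and SLC16A1, HCAR2 and FFAR3 had no entry. The 7 starts with an H3K9ac peak within 1 kb in both lists had 10 to 50 CG in 250 bases, the highest counts being 50 at the second start of BSG and 43 at a start of SLC16A3. The 4 with a peak in butyrate alone had 3 to 15, and the 3 with none had 1, 1 and 10. Over all starts of the table the medians were 22, 8 and 3 CG in these classes. Starts of 1 gene share sequence and peaks, so they are not independent. The GC box GGGCGG, which itself holds a CG, was searched on both strands in the same 250 bases. It was present at 6 of the 7 starts with H3K9ac in both lists, at 1 of the 4 with butyrate alone and at 0 of the 3 with none. Of all starts, 42.7% had it. This share was not split by H3K9ac class, so the counts have no background of their own class. A match describes letters and not a bound site.

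**Figure D5:**
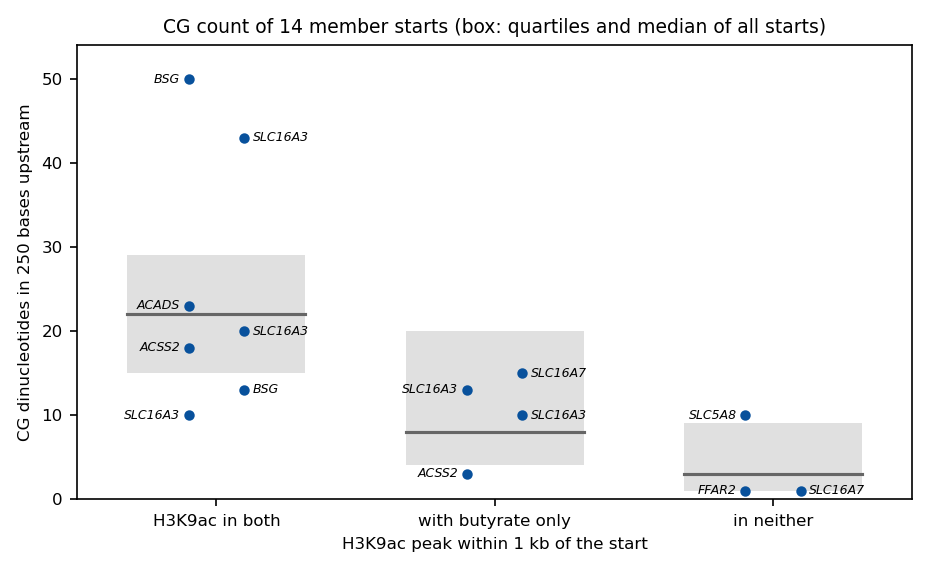
CG dinucleotides in the 250 bases upstream (y axis) of 14 member starts, grouped by whether an H3K9ac peak lay within 1 kb in both lists, with butyrate only or in neither (x axis), with grey boxes for the quartiles and a line for the median of all starts in each class. The starts with no peak, of SLC5A8, FFAR2 and SLC16A7, lie at 10 or below.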

How the data were processed

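Peak lists of 6 libraries were read, and both input samples were not analysed here. The submitters' processing notes name CASAVA 1.7, MACS2 2.1.0 and the build hg19. Aligner and duplicate filter: not given in the sources used here. The deposited fold is a linear ratio, which the values give as the summit's reads plus 1 over the background around it plus 1. The deposited p and q values are −log10 values per summit, and the deposited score is 10 times −log10 q (H3K9ac, IgG) or −log10 p (H4K16ac). Against RefSeq GRCh38.p14, the gene starts given by the authors were 66 bp away in the median (13612 genes), so positions were read as GRCh38, counted from 1.

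With Python 3.11.15 and scipy 1.17.1, deposited lines sharing bases were merged, and peaks sharing 1 bp counted as overlapping. Summit reads were recovered from fold and p, within 0.001 for 99.998% to 100% of summits, with a scale of 0.897 for butyrate H4K16ac. Depth assumes a genome of 2.7 Gb. Scripts were tested on simulated data. Of 19974 genes, 19652 had a promoter call and 322 were left out. Of those called, 1191 had no strand and counted as without a promoter peak. Members and lists were chosen with earlier results of these data known. Named are the members, with their strongest promoter peak and strongest peak found in one condition, neighbours with a peak within 1 kb of their start, and pathway genes whose promoter call differs. Further peaks described, the marker genes, EMB, ACADVL, CSNK1D and UNC119B were chosen after their values were seen. Alternatives were list length, peak strength, reach, merging, neighbouring starts, overlap and choice of start.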

Additional observations from a re-analysis of the deposited data

How the results depend on the processing

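No paired analysis was possible because each condition has 1 library per antibody and the labels give no replicate numbers. Of 106 alternative values, 72 stayed within 1.5 times the reported count. With equal numbers of top peaks, butyrate H3K9ac peaks came to 19 and gained H3K9ac promoters to 0, while control H4K16ac had 5 peaks, 1 promoter and 1 lost promoter, against 8 peaks and 1 promoter with butyrate, so that the order of the H4K16ac peak counts turned. At a fold of at least 5, H3K9ac had 8 control peaks (6 overlapped) and 10 butyrate peaks, with 0 gained promoters and 1 lost, and every H4K16ac count was 0. In the gene body alone, H3K9ac had 10 control peaks (10 overlapped) and 30 butyrate peaks, and H4K16ac 9 (0 overlapped) and 5. Counted by summit, H3K9ac had 36 and 104. At a q of 0.05 or less, H4K16ac had 3 control peaks (0 overlapped) and 1 butyrate peak, with 0 promoters in either list, 0 gained and 0 lost. Requiring an overlap of 50% of the shorter peak left 0 shared H4K16ac peaks. With the outer RefSeq start alone, chosen after seeing the data, 2 H3K9ac promoters were gained (SLC16A7 and ACSS2). A common limit of −log10 p, also chosen after seeing the data, and leaving out peaks at starts of other genes moved no count past 1.5 times. Fewer peaks are tested under each stricter limit. With a 2.5 kb promoter window no promoter count moved past 1.5 times. The H4K16ac peaks here rest on 6 to 14 reads at the summit.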
